A study of Mus musculus with 912 samples.

Results

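The nuclei described here are 67 CA1 nuclei without FOS protein, divided by whether they held transcript of Arc, the activity-regulated cytoskeletal gene whose protein acts at synapses. Members were nuclei that the study predicted to be CA1 pyramidal neurons, that fell in the FOS-negative sort gate, that came from home cage mice (HC) or from mice taken 1 h after exploration of an unfamiliar environment (NE), and that had at least 4000 genes above 1 on the log2(TPM+1) scale, where TPM is a transcript's abundance scaled for its length and the library's depth. They were 67 of the 360 nuclei in the deposited HC and 1 h tables and of the 912 nuclei in the series, and 1 further CA1 FOS- nucleus failed the gene threshold. Nuclei with Arc above 2.5 on the same scale are called Arc-high (27 nuclei, 16 HC and 11 at 1 h), and the others Arc-low (40 nuclei, 19 HC and 21 at 1 h). The members and classes were chosen by measured values, namely the number of genes detected and Arc, so Arc was left out of every test and its values are given as a description.

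The study isolated hippocampal nuclei from female C57BL6 mice, stained them for NEUN, PROX1, CTIP2 and FOS, sorted single nuclei and sequenced each with SmartSeq2, a full-length method. No genotype other than the strain is given in the labels, and no treatment beyond the exposure. The NE was a large cage with huts and tunnels in which 1 h mice spent 15 min before they went back to the home cage for 1 h, and HC mice stayed where they were. Each value is therefore RNA in a nucleus, so a transcript may be new or retained there.

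Members came from 6 mice, all PROX1-. The 1 h mouse 2 and the HC mouse 3 (both 8.7 weeks) were sampled through the CTIP2+ gate and gave 8 Arc-high and 13 Arc-low, and 15 Arc-high and 12 Arc-low nuclei. The others were sampled through the CTIP2- gate. There the 1 h mouse 10 (8.85 weeks) gave 3 Arc-high and 3 Arc-low nuclei, the HC mouse 8 (8.85 weeks) gave 1 and 3, and the 1 h mouse 4 and HC mouse 4 (both 9 weeks, separate animals) gave 5 and 4 Arc-low nuclei and no Arc-high nucleus. Classes were compared within a mouse, so each comparison also stays within one age, gate and library prefix. Exposure, in contrast, differs between mice, and only 1 HC mouse had at least 2 nuclei in each class.

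Immediate-early genes (IEGs) are transcribed within minutes of synaptic activity without new protein synthesis. Calcium entry and MAP kinase signalling act through CREB, SRF and MEF2 on their promoters. The first products are mainly transcription factors such as Fos, Egr1 and Nr4a1, and effectors such as Arc, Homer1 and Bdnf act at the synapse. Sorting for FOS protein captures 1 arm of this response, and nuclei without FOS protein can still hold other IEG transcripts.

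The CA1 label was checked on 12 markers. Slc17a7, the vesicular glutamate transporter of these cells, was above 1 in 67 of 67 nuclei and Camk2a, a kinase subunit of excitatory neurons, in 66. Neurod6 was above 1 in 61, Dkk3 in 60, Spink8 in 51, Mpped1 in 50, Wfs1 in 45 and Bcl11b, which encodes CTIP2, in 41. A nucleus had between 3 and 12 of the 12 markers, with a median of 9. Of other cells' markers, Gad2 was above 1 in 5 nuclei, Gad1 in 4, Prox1 in 2, Slc32a1 in 1, and Vip, Cldn5 and C1qa in 0 of 67. Other markers were detected more widely. By exposure and class, the median number above 1 in a nucleus was 2 or 3 of 14 glia and vessel genes. It was 1 to 2 of 7 dentate genes and 1 or 2 of 8 CA3 and CA2 genes. Each nucleus had at least 1 of 6 subiculum genes above 1. In all, 15 nuclei (5 Arc-high and 10 Arc-low) had over 500 TPM summed over another type's markers or under 6 CA1 markers, among them the only Arc-high nucleus of HC mouse 8, which had 3 CA1 markers. Values without these 15 nuclei are given with the first results.

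Nr4a1, Nr4a2 and Npas4 are transcription factors of the IEG list that stood higher in the Arc-high sum of every mouse tested, and Junb is the listed transcription factor with the lowest fold change. Their promoters are shown because TGACG, the core of the CREB site, is the letter sequence by which this pathway is usually recognised. Each is given from 250 bases before to 50 bases after the start (RefSeq, GRCm38.p6), with TGACG or its reverse complement CGTCA in capitals.
Nr4a1, chr15:101266596-101266895, plus strand: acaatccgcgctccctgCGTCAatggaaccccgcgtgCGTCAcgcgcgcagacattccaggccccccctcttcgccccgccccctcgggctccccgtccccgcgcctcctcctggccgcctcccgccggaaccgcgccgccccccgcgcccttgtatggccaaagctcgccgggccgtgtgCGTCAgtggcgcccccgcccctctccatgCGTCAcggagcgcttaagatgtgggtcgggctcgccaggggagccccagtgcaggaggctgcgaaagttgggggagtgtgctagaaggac
Nr4a2, chr2:57123954-57124253, minus strand: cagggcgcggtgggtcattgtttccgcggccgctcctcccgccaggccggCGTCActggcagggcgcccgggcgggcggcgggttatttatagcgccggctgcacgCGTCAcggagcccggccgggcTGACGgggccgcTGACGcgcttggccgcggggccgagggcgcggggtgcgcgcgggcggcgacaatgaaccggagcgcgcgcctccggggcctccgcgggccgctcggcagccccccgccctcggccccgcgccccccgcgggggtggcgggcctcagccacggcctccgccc
Npas4, chr19:4989922-4990221, minus strand: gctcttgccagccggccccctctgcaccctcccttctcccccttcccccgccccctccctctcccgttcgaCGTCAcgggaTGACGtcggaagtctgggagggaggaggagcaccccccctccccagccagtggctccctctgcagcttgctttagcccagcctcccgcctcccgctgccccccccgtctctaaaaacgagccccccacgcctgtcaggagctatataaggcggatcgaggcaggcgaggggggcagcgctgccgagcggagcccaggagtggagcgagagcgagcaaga
Junb, chr8:84978699-84978998, minus strand: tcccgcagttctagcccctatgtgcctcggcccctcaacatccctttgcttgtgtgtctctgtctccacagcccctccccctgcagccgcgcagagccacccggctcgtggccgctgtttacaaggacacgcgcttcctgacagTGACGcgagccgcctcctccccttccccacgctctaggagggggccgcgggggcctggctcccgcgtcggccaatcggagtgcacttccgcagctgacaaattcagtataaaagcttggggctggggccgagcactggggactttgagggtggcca
The Nr4a1 and Nr4a2 windows held 4 matches each, Npas4 2 and Junb 1. Of the 24 listed IEG transcription factors 19 had promoters in the table, and 23 of their 29 promoters (79.3%) held TGACG. The motif was in 19 of 48 promoters (39.6%) of the 32 effectors with an entry (of 42 listed) and in 20.8% of all 32851 promoters. The full palindrome TGACGTCA, which contains TGACG on both strands, was in 2 of the 29, in 7 of the 48 and in 1.79% of all promoters. Junb holds the motif as well, so its presence did not separate the listed genes by direction.

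Arc lies at chr15:74669083-74672570 on the minus strand (mm10, GENCODE gene models). In Arc-high nuclei it ranged from 2.65 to 8.77 log2(TPM+1), with a median of 6.76, which came from 6 to 1478 counts (median 178). In Arc-low nuclei it was at 0 in 26 of 40, and the other 14 had 1 or 2 counts. No nucleus lay between 1.45 and 2.65. The values nearest the threshold were 1.45, 1.19 and 1.13 below it and 2.65, 3.24 and 3.80 above it, so the classes sit on either side of a gap. Arc-high HC nuclei (3.24, median 6.47, up to 8.77) and Arc-high 1 h nuclei (2.65, median 7.07, up to 8.58) covered the same range. CA1 FOS+ nuclei at 1 h reached 10.3, and their 20 nuclei above the threshold had a median of 7.24.

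**Figure D1:**
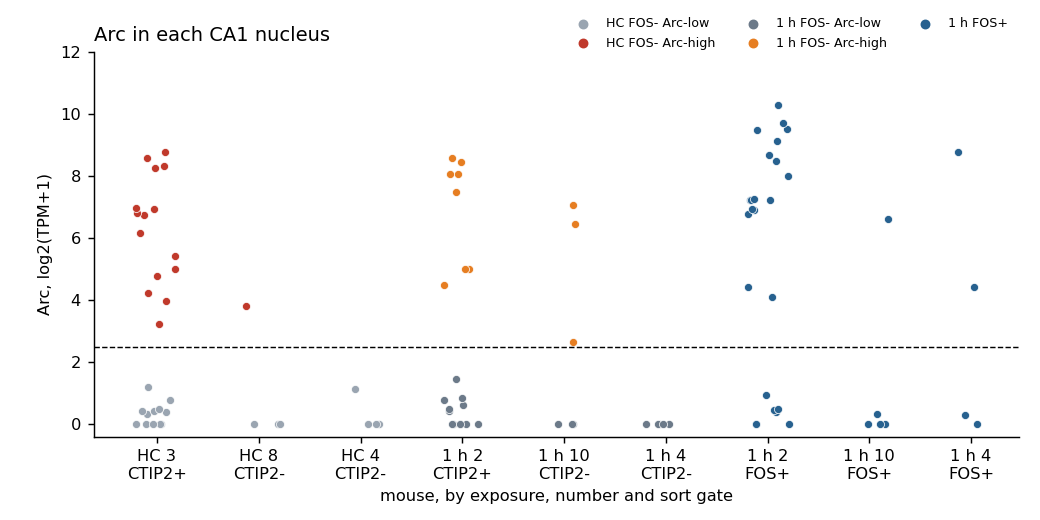
Arc in log2(TPM+1) (vertical axis) in each CA1 nucleus, by mouse, exposure and sort gate (horizontal axis), with colours for the 5 groups. The dashed line is the threshold of 2.5, and Arc-low nuclei lie at or below 1.45 while the lowest Arc-high nucleus is at 2.65.

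Among CA1 FOS- nuclei, 40.3% were Arc-high (27 of 67, exact 95% binomial interval 28.5 to 53.0%). The share was 45.7% in HC (28.8 to 63.4%) and 34.4% at 1 h (18.6 to 53.2%), and these intervals overlap. It was 47.9% in the CTIP2+ gate (23 of 48) and 21.1% in the CTIP2- gate (4 of 19). In FOS+ CA1 nuclei 20 of 33 were above the threshold, or 60.6% (42.1 to 77.1%). This rests on mouse 2, with 17 of 24, since mouse 4 had 2 of 4 and mouse 10 had 1 of 5, below the 3 of 6 of its FOS- nuclei. In FOS- nuclei of other predicted types the number was 5 of 27 in subiculum, 1 of 53 in dentate gyrus, 1 of 14 in CA3, 1 of 11 in Ivy cells and 0 of 40 in VIP interneurons. The intervals cover counting error between nuclei only and take no account of mice.

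Library depth was compared first. Total counts per nucleus ran from 343713 to 2283250 (median 1238890) and genes above 1 from 5497 to 8968 (median 6740). Over the 4 mice with both classes, the mean difference of Arc-high from Arc-low nuclei was -107857 counts and -270 detected genes (exact paired permutation test, two-sided, p = 0.5 for each). The mice differed in direction, since Arc-high nuclei had 203214 more counts in 1 h mouse 2 and 682 more detected genes in HC mouse 3. In each measure the other mice were lower. The aligned share of reads of Arc-high nuclei was 4.06 percentage points lower, in 4 of 4 mice, which gives p = 0.125, the smallest that this exact test allows with 4 mice. The part of these values in the results was not tested.

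For the test, counts were summed per mouse and class over the 3 mice with at least 2 nuclei in each class (1 h mouse 2, 1 h mouse 10 and HC mouse 3), which gave sums of 1289939 to 18561886 counts. Arc-high nuclei held more transcript of several IEG transcription factors. Nr4a1, Egr1, Nr4a2 and Npas4 were higher in the Arc-high sum of all 3 mice, and the Arc-high excess of Fos came from 2 of 3. None of these passed the correction over 16269 genes: edgeR's quasi-likelihood test with mouse as a block called 0 genes at an adjusted p under 0.05 (background 0%), with 487 at an unadjusted p under 0.05, and DESeq2 called 404 (169 higher and 235 lower, 2.48%).

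Of the 24 IEG transcription factors, 17 passed the filter on low counts. Of these, 12 had a positive and 5 a negative log2 fold change, against 48.5% positive over all genes. In this list 3 were higher at an unadjusted p under 0.05 (background 1.32%) and 0 lower (1.68%), and 4 were higher and 0 lower in all 3 mice (backgrounds 10.0% and 10.7%). The median log2 fold change of the list was 3.00, against -0.04 for all genes tested. Each mouse mattered for its size, since it was 1.11 without 1 h mouse 2, 1.28 without HC mouse 3 and 1.88 without 1 h mouse 10. None of the 17 had sums of 0 throughout one class.

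Nr4a1, a nuclear receptor that acts without a known ligand (chr15:101254269-101274795), was the listed gene with the lowest p. It had 2352 counts in the Arc-high and 246 in the Arc-low sum of 1 h mouse 2, 438 and 1 in 1 h mouse 10, and 2488 and 175 in HC mouse 3. The Arc-high sum was thus higher in each mouse, by a log2 fold change of 4.90 (SE 1.49, edgeR unadjusted p = 0.0234, adjusted p = 1), while DESeq2 gave 4.96 with an adjusted p of 0.0141 and called no other listed transcription factor. Per nucleus, Nr4a1 was above 1 in 11 of 16 HC Arc-high against 5 of 19 HC Arc-low nuclei, and in 7 of 11 against 3 of 21 at 1 h. HC Arc-high nuclei spanned 0 to 8.00 log2(TPM+1) with a median of 4.80, and HC Arc-low 0 to 7.69 with a median of 0. At 1 h the spans were 0 to 9.16 (median 5.58) and 0 to 6.44 (median 0). The classes overlapped, since a minority of Arc-low nuclei held Nr4a1 and some Arc-high nuclei had none. When each nucleus was thinned to 300000 counts, Nr4a1 was still counted in 11 of 16, 6 of 19, 7 of 11 and 3 of 21. In HC mouse 8, the single Arc-high nucleus had 0 Nr4a1 counts, so not every mouse showed the pattern. Without the 15 nuclei that carried other markers the log2 fold change was 6.24, and without nuclei with any Fos count it was 4.27.

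Egr1, a zinc finger factor, was detected more broadly. Its sums were 4031 and 1558 counts (Arc-high and Arc-low, 1 h mouse 2), 15 and 2 (1 h mouse 10) and 7230 and 2561 (HC mouse 3), a log2 fold change of 2.03 (SE 0.68, edgeR unadjusted p = 0.0328, adjusted p = 1). Egr1 was above 1 in 15 of 16 HC Arc-high nuclei (median 6.99) and 12 of 19 HC Arc-low nuclei (median 3.90). At 1 h it was above 1 in 8 of 11 (median 5.81) and 10 of 21 (median 0.89). Mean Egr1 was higher in the Arc-high nuclei of 4 of 4 mice, by 2.26, 1.14, 2.30 and 4.47 log2 units in 1 h mouse 2, 1 h mouse 10, HC mouse 3 and HC mouse 8. The ranges overlapped widely in both exposures. Without nuclei with any Fos count, the Egr1 log2 fold change was 0.65.

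Nr4a1 and Egr1 were above 1 together in 10 of 16 HC Arc-high nuclei against 5 of 19 HC Arc-low nuclei, and in 5 of 11 against 1 of 21 at 1 h. Both were missing in 0 of 16, 7 of 19, 1 of 11 and 9 of 21. Most FOS+ nuclei (25 of 33) held both.

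**Figure D2:**
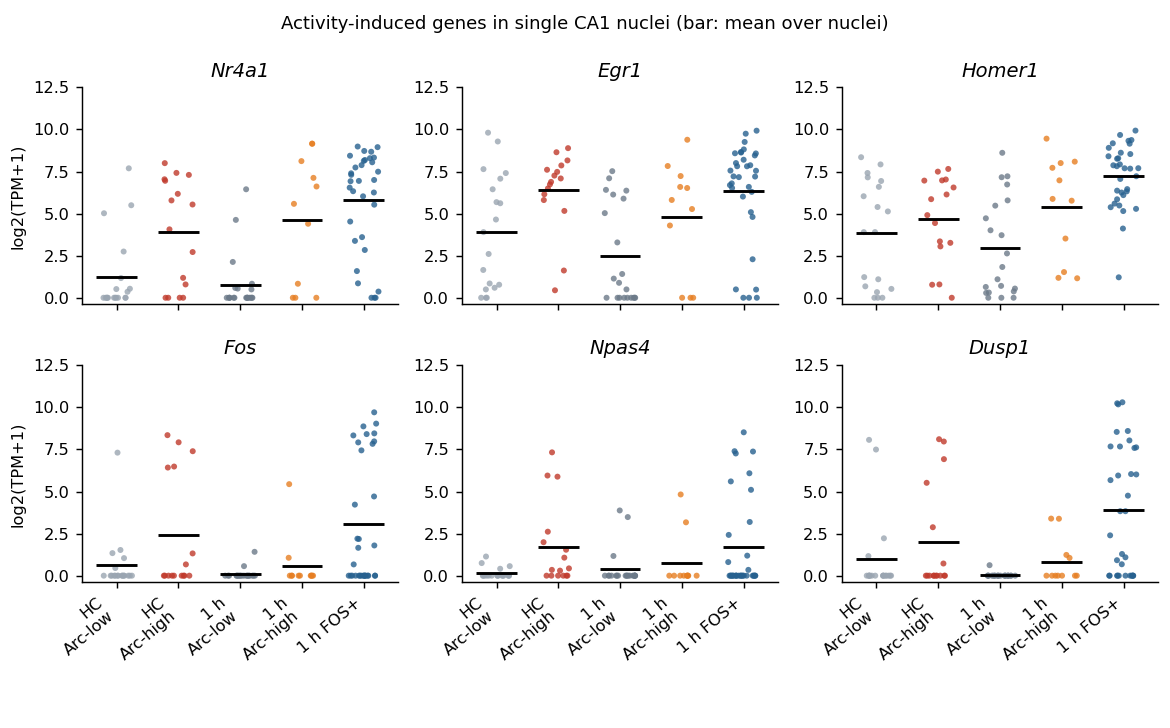
Nr4a1, Egr1, Homer1, Fos, Npas4 and Dusp1 in single CA1 nuclei: log2(TPM+1) on the vertical axis, the 5 groups on the horizontal axis, 1 point per nucleus and a bar for the mean over nuclei. Nr4a1 is above 1 in 11 of 16 and 7 of 11 Arc-high nuclei (HC and 1 h) against 5 of 19 and 3 of 21 Arc-low nuclei, and all 6 genes overlap between the classes.

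Nr4a2, a relative of Nr4a1, had sums of 1473 and 588, 64 and 26, and 2795 and 40 counts in the same order of mice (log2 fold change 3.00, SE 1.35, edgeR unadjusted p = 0.0790). Npas4, a factor specific to neurons and calcium entry, had 82 and 64, 7 and 0, and 873 and 3 counts (5.26, SE 2.67, edgeR unadjusted p = 0.109). Their Arc-high sums were the higher in each mouse. For Nr4a2 at 1 h, 1221 of 1537 Arc-high counts were in 1 nucleus, as were 510 of 619 Arc-low counts, so its 1 h direction rests on few nuclei. For Npas4, however, 581 of 873 HC counts and 82 of 89 counts at 1 h were in 1 nucleus, and it was above 1 in 7 of 16 HC Arc-high and 1 of 19 HC Arc-low nuclei against 2 of 11 and 3 of 21 at 1 h. Ier5, an immediate-early response gene, had 632 and 0, 0 and 0, and 232 and 1 counts (edgeR unadjusted p = 0.0386). Of its Arc-high counts, 539 of 632 at 1 h and 140 of 232 in HC were in 1 nucleus.

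Fos transcript was found in nuclei without FOS protein, and mostly in the home cage. It was counted in 9 of 27 Arc-high and 7 of 40 Arc-low nuclei. Its sums were 1 and 2 counts in 1 h mouse 2, 22 and 0 in 1 h mouse 10, and 1255 and 6 in HC mouse 3 (log2 fold change 5.58, SE 3.06, edgeR unadjusted p = 0.131), so HC mouse 3 supplied nearly all of it. Fos was above 1 in 6 of 16 HC Arc-high and 4 of 19 HC Arc-low nuclei, and in 2 of 11 and 1 of 21 at 1 h, where 22 of the 23 Arc-high counts were in 1 nucleus. Nr4a1 was above 1 without Fos above 1 in 6 of 16, 4 of 19, 5 of 11 and 3 of 21 nuclei of the same groups. Fosb was at 0 in all 67 members and counted in 13 of 33 FOS+ nuclei, while Atf3 and Maff were at 0 in both.

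Not all transcription factors of the list stood higher. Junb, a partner of FOS in AP-1, had 231 and 1352 counts in 1 h mouse 2, 2 and 61 in 1 h mouse 10, but 2355 and 1269 in HC mouse 3 (log2 fold change -1.85, SE 1.45, edgeR unadjusted p = 0.259). Jun had 484 and 63, 18 and 0, and 41 and 35 counts (3.24, SE 2.29, p = 0.219 in edgeR). Nr4a3, Per1, Egr4 and Klf4 had log2 fold changes of -0.20, -0.38, -0.31 and -0.14. Nr4a3 was lower in the Arc-high sum of 1 h mouse 10 only, with 1 and 68 counts. It had 2514 and 866 in 1 h mouse 2 and 1926 and 1036 in HC mouse 3. The directions thus differed between members, for Junb between exposures and for Nr4a3 between the 1 h mice.

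The number of IEG transcription factors above 1 in a nucleus (of 24) had a median of 7 in HC Arc-high, 4 in HC Arc-low, 5 in 1 h Arc-high and 4 in 1 h Arc-low nuclei, and 11 in FOS+ nuclei. Within mice the mean number was higher in Arc-high nuclei by 1.42 in 1 h mouse 2, by 2.58 in HC mouse 3 and by 1.33 in HC mouse 8, and differed by -0.33 in 1 h mouse 10. Their summed level had medians of 660, 175, 460 and 147 TPM, and 1585 TPM in FOS+ nuclei.

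Effectors are here the induced genes listed apart from the transcription factors, among them chromatin genes such as Kdm6b. They were detected in slightly greater number in Arc-high nuclei, but their summed counts had no common direction. The mean number above 1 per nucleus (of 42) was higher in the Arc-high nuclei of 4 of 4 mice, by 1.67, 0.67, 3.58 and 1.33 in 1 h mouse 2, 1 h mouse 10, HC mouse 3 and HC mouse 8. Their median summed level was higher as well, at 1505 and 1151 TPM in Arc-high and Arc-low nuclei, 1800 and 1419, 1764 and 1543, and 2855 and 1074 in the same order of mice. In the fit over sums, of 42 listed genes 39 were tested, with 22 positive, 17 negative and 0 at an unadjusted p under 0.05 in either direction. In all 3 mice 6 were higher (15.4%, background 10.0%) and 4 lower (10.3%, background 10.7%). The list had a median of 0.32. This median was -0.05 when HC mouse 8 was added and -0.43 when only nuclei with Arc above 5 counted as Arc-high, so its sign is not fixed. The 6 genes higher in all 3 mice were Homer1, Ankrd33b, Kdm6b, Dusp1, Gadd45g and Sik1, and the 4 lower were Sgk1, Rheb, Nrn1 and Slc2a3. These directions are of sums scaled for depth, and some rest on single counts. Gadd45g had 1 and 1 counts in 1 h mouse 2, and in 1 h mouse 10 Sik1 had 1 and 1 and Ankrd33b 1 and 0. Mean log2(TPM+1) per nucleus was lower in all 3 mice for Sgk1 and Nrn1. For Rheb it was higher in 1 h mouse 2 (0.10) and HC mouse 3 (0.28), and for Slc2a3 in HC mouse 3 (0.89).

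Homer1, which encodes a scaffold of postsynaptic glutamate receptors, had 3129 and 2678, 201 and 7, and 2534 and 1511 counts (log2 fold change 1.84, SE 1.31, edgeR unadjusted p = 0.221). It was above 1 in all 11 Arc-high nuclei at 1 h and in 12 of 21 Arc-low nuclei, and in 13 of 16 and 13 of 19 HC nuclei, and its fold change rested largely on 1 h mouse 10, since it was 0.60 without that mouse. The values do not separate the short activity-induced form of Homer1 from the long form. Dusp1, a MAP kinase phosphatase, had 12 and 0, 6 and 0, and 1193 and 160 counts (4.61, SE 1.91, edgeR unadjusted p = 0.0634). It was above 1 in 4 of 11 Arc-high and 0 of 21 Arc-low nuclei at 1 h, with at most 3.39 log2(TPM+1), and in 5 of 16 and 4 of 19 HC nuclei. Gadd45g, a stress-response and DNA demethylation factor, had 1 and 1, 2 and 0, and 349 and 2 counts (edgeR unadjusted p = 0.111).

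Sgk1, a serum- and glucocorticoid-regulated kinase, was lower in the Arc-high sum of each mouse, with 159 and 670, 17 and 119, and 534 and 1568 counts (log2 fold change -1.89, SE 0.99, edgeR unadjusted p = 0.118). Rheb, the GTPase that activates mTOR, had -1.43 (SE 0.88, p = 0.168 in edgeR), Nrn1, which encodes the surface protein neuritin, -2.25 (SE 1.91), and Slc2a3, the neuronal glucose transporter, -1.19 (SE 1.03). Bdnf, the neurotrophin, had 300 and 1304, 0 and 94, and 1617 and 686 counts (-2.00, SE 2.30, edgeR unadjusted p = 0.427). Bdnf was above 1 in 6 of 16 and 6 of 19 HC nuclei and in 2 of 11 and 9 of 21 nuclei at 1 h, against 29 of 33 FOS+ nuclei.

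**Figure D3:**
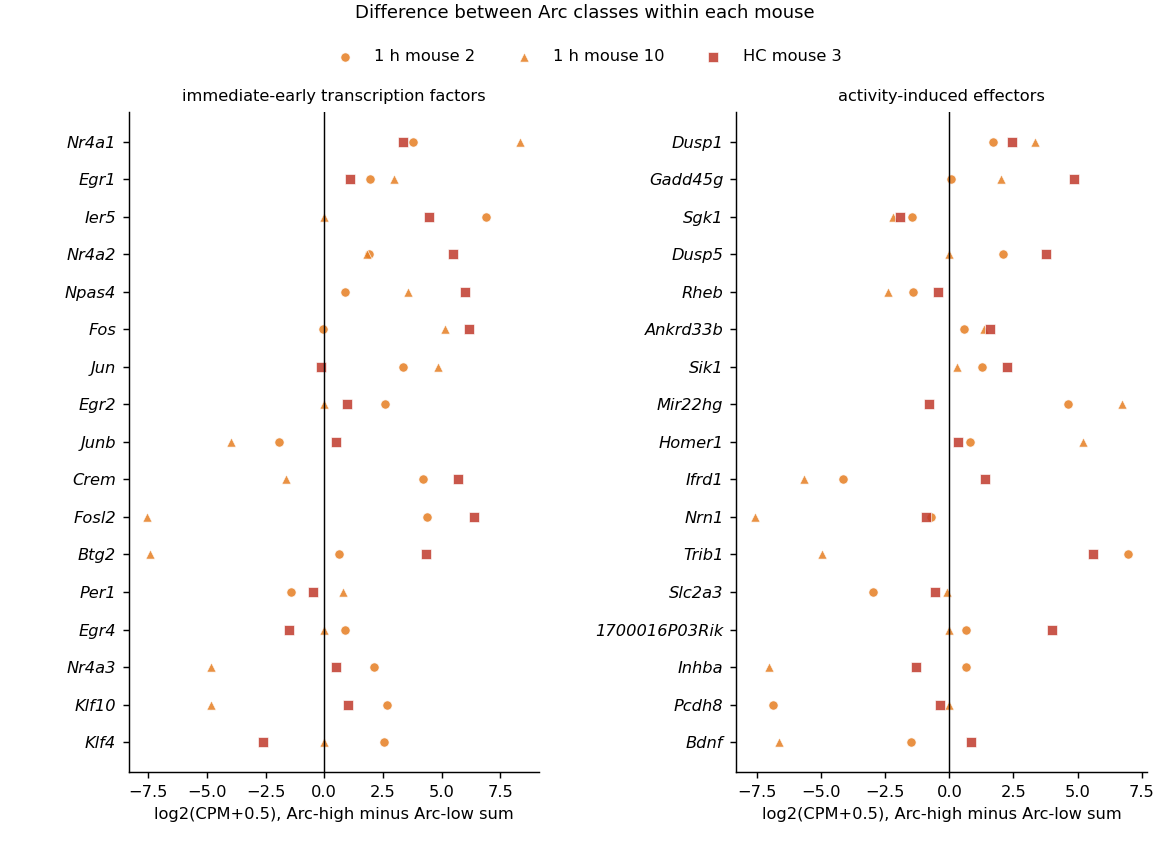
Difference between the Arc-high and the Arc-low sum of a mouse in log2(CPM + 0.5) (horizontal axis) for the 17 IEG transcription factors tested (left) and the 17 effectors of lowest p (right), 1 marker per mouse. Nr4a1, Egr1, Nr4a2 and Npas4 lie right of 0 in all 3 mice, and Sgk1 lies left of 0 in all 3.

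Genes that act upstream of Arc or bind its protein were more often lower than higher in Arc-high sums. Of 25 Arc regulators and partners, 24 were tested, 9 were positive and 15 negative, and the median was -0.17. In all 3 mice 1 was higher (4.17%, background 10.0%) and 5 lower (20.8%, background 10.7%), while 0 were at an edgeR unadjusted p under 0.05. The AMPA receptor subunits Gria2, Gria1 and Gria3 had log2 fold changes of -0.19, 0.37 and 0.42, and Elk1, a partner of SRF, had -2.77 (edgeR unadjusted p = 0.0888). Of 25 genes of synaptic input, calcium and MAP kinase signalling, 24 were tested, 12 in each direction, with a median of 0.04 and 0 at an edgeR unadjusted p under 0.05. In all 3 mice 5 of these were higher (20.8%) and 4 lower (16.7%). Among them the NMDA receptor subunit Grin2b had 0.18, calmodulin Calm2 0.64, the calcineurin subunit Ppp3ca 0.46 and the glutamate receptor Grm5 -0.20.

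The lists of early (252 genes) and sustained (106 genes) activity-regulated genes were taken from the study, which chose them on samples of this series, so their direction is not independent evidence. Of the 231 early genes tested 121 were positive, against 48.5% of all genes, with a median of 0.06. In all 3 mice 28 were higher (12.1%, background 10.0%) and 17 lower (7.36%, background 10.7%). At an edgeR unadjusted p under 0.05, 6 were higher (background 1.32%) and 0 lower (1.68%). Of 103 sustained genes tested 60 were positive, with a median of 0.22, and in all 3 mice 15 were higher (14.6%) and 10 lower (9.71%). DESeq2 called 2 early genes, Brd2 and Rap1b, against 2.48% of all genes.

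Over all genes, those of lowest p that stood higher in the Arc-high sums of all 3 mice included an abundant nuclear RNA and several sparse genes. Malat1, a long noncoding RNA retained in the nucleus (chr19:5795690-5802672), had 98930 and 78060 CPM (counts scaled for library size) in 1 h mouse 2, 94660 and 78060 in 1 h mouse 10, and 80640 and 72500 in HC mouse 3 (log2 fold change 0.26, SE 0.04, edgeR unadjusted p = 0.0011, adjusted p = 1). The difference was small and in 1 direction. It was 0.12 when HC mouse 8 was added. Mpi, which encodes mannose phosphate isomerase, had 101 and 6, 810 and 85, and 1749 and 28 counts (4.66, SE 0.77, edgeR unadjusted p = 0.0021), and Ptprn, a protein of dense-core vesicles, had 8817 and 4301, 161 and 64, and 6602 and 1885 (1.64, SE 0.39, edgeR unadjusted p = 0.0096). Ptprn was above 5 log2(TPM+1) in each of the 11 Arc-high nuclei at 1 h (5.08 to 9.52), while Arc-low nuclei ranged from 0.40 to 8.94. Sox8, Pcdhga7, Lrrc59, Cnp and Pcdhb19 completed the 8 genes. Each of these had at most 5 counts over the 3 Arc-low sums.

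The 8 genes lower in all 3 mice were Zfp57, Fam131b, Tbc1d20, Gm37274, B3gat2, St6gal1, Itpk1 and Gpr180. Gpr180, an orphan receptor, had 4 and 680, 0 and 117, and 11 and 645 counts (log2 fold change -7.11, SE 1.66, edgeR unadjusted p = 0.0089), and it was above 1 in 1 of 16 and 9 of 19 HC nuclei and in 0 of 11 and 5 of 21 nuclei at 1 h. Zfp57, a zinc finger protein of imprinted loci, had 0 and 464, 1 and 444, and 1 and 261 counts, but it was above 1 in few nuclei of either class, 1 of 16, 3 of 19, 1 of 11 and 6 of 21. All of these 16 genes had an adjusted p of 1.

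Some markers of other cells differed between the classes. Of the interneuron list 6 of 12 were tested, with 2 higher and 1 lower at an edgeR unadjusted p under 0.05. Npy (75 and 1, 1 and 0, 2 and 0 counts) and Pvalb (55 and 0, 1 and 0, 115 and 0) were the higher ones. Gad1, Slc32a1 and Vip were under the filter. Of the glia and vessel list 7 of 14 were tested, with 2 positive and 5 negative, and Gfap (0 and 154, 0 and 296, 0 and 0) was lower. Sox8 and Cnp are not in that list, so its direction does not cover them. Both were higher in the Arc-high sum of every mouse tested, with log2 fold changes of 8.85 and 8.12. Of the dentate list 4 of 7 were tested, 2 in each direction, and C1ql2 (5 and 2373, 0 and 0, 0 and 468) was lower. DESeq2 called Gfap and C1ql2. The counts came from few nuclei, since C1ql2 was above 1 in 4 Arc-low nuclei and 1 Arc-high nucleus. Of the subiculum list 5 of 6 were tested, 1 positive and 4 negative, and of the CA3 and CA2 list 5 of 8, 2 positive and 3 negative. Per nucleus, the summed subiculum level was at most 1071 TPM in Arc-high and 2353 TPM in Arc-low nuclei, and the glia level at most 841 and 13469 TPM. The part of these cells in the results was not tested. The comparison without the 15 nuclei gave 0 called genes in edgeR, as did that with them. It had 550 genes at an edgeR unadjusted p under 0.05, and a log2 fold change of 2.06 for Egr1.

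The CA1 markers themselves did not divide the classes in 1 way. Of 12 tested, 9 were positive and 3 negative with a median of 0.18. Camk2a had a log2 fold change of 0.00 (SE 0.27), Slc17a7 0.21 (SE 0.47), Fibcd1 0.01 (SE 0.57) and Dkk3 0.16 (SE 0.54). Of 5 genes that mark superficial or deep CA1 cells 4 were positive, with Calb1 at 1.97 (SE 2.00), Zbtb20 at 0.02 (SE 0.22), Ndst4 at 0.57 (SE 0.64) and Nov at -0.45 (SE 0.81). In each of these genes the standard error exceeded the change, and no gene of either list was at an unadjusted p under 0.05.

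The question whether Arc-high nuclei differ from Arc-low nuclei already in the home cage was put to the same 6 sums, with 1 class effect per exposure. The HC effect rests on mouse 3 alone and takes its spread from the 1 h mice. Neither exposure had a gene at an adjusted p under 0.05 in edgeR among 18878 tested. In HC 373 genes were at an unadjusted p under 0.05 (202 higher, 1.07%, and 171 lower, 0.906%), with 46 called by DESeq2 (0.244%). At 1 h 764 were (304 higher, 1.61%, and 460 lower, 2.44%), with 476 called by DESeq2 (2.52%). IEG transcription factors leaned to the Arc-high side in both, with 14 of 19 positive in HC (median 1.15) and 11 of 19 at 1 h (median 1.65, or 1.88 when 2 genes at 0 in a class were set at a bound of 3 counts and 2 genes with at most 3 counts in each class were left out), against 50.3% and 42.9% of all genes. Nr4a1 had a log2 fold change of 3.40 (SE 2.42) in HC and 6.16 (SE 2.17) at 1 h. Nr4a2 had 5.69 (SE 2.72) and 1.88 (SE 1.63), and Egr1 1.07 (SE 1.37) and 2.59 (SE 1.07). None of the 3 differed between exposures at an unadjusted p under 0.05 in the interaction test, with edgeR values of 0.412 for Nr4a1, 0.239 for Nr4a2 and 0.416 for Egr1.

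In HC the genes of lowest p that were higher in Arc-high nuclei were Meg3, Malat1, Gm26917, Trim71, March8, Slc5a3, Alkbh4 and Sntb2, and those lower were Atp2b1, Rn7s1, Rn7s2, Ddx5, Calm2, Fbxl19, Gm37936 and Ctsc. Meg3, an abundant imprinted noncoding RNA, was higher by 0.43 (SE 0.06, edgeR unadjusted p = 5.1e-04) in mouse 3, while its mean log2(TPM+1) differed by -0.54 in HC mouse 8, which is not in the fit, and Calm2 was lower, at -1.04 (SE 0.31, p = 0.0188 in edgeR), as was Atp2b1, a plasma membrane calcium pump, at -0.41 (SE 0.08, p = 0.0032 in edgeR). Rn7s1 and Rn7s2 have identical values and are near-identical copies, so how reads were divided between them is uncertain. All had an adjusted p of 1.

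At 1 h the higher genes were Malat1, Atp2b1, Calm2, Cck, Slc24a2, Gria1, Ppp3ca and Nfs1, and the lower ones Meg3, Mctp1, Myadm, Tm9sf4, Lrrn3, Ptdss1, Snhg11 and Zfp445. Malat1 had a log2 fold change of 0.31 (SE 0.02, edgeR adjusted p = 0.137). Calm2 had 1858 and 794 CPM in the Arc-high and Arc-low sum of mouse 2 and 965 and 318 in mouse 10, a log2 fold change of 1.41 (SE 0.22, edgeR unadjusted p = 0.0013). In HC mouse 3 the Calm2 values were 1379 and 2842, so the order of the classes was the opposite. Cck, a neuropeptide, had 1591 and 822.5 CPM in mouse 2 and 1847 and 590.5 in mouse 10. Slc24a2, a sodium-calcium exchanger, had a log2 fold change of 1.63 (SE 0.37), Gria1 0.77 (SE 0.19) and Ppp3ca 0.96 (SE 0.25), and the edgeR adjusted p of all 4 was 0.802. Meg3 had -0.36 (SE 0.04) and Snhg11 -0.51 (SE 0.12).

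The difference between the exposures in the class effect was tested as an interaction. EdgeR called 0 of 18878 genes, with 607 at an unadjusted p under 0.05 (181 higher at 1 h, 0.959%, and 426 lower, 2.26%), and DESeq2 called 185 (0.980%). Genes with the lowest p were, on the side of a greater Arc-high excess at 1 h, Atp2b1, Malat1, Calm2, Rn7s1, Rn7s2, Slc29a4, Cyb561d1 and Gria1, and on the other side Meg3, Gm26917, Mctp1, Zfp445, 2900097C17Rik, Trim71, March8 and Slc20a2. Calm2 had an interaction of 2.46 (SE 0.38, edgeR unadjusted p = 0.0013), Gria1 1.23 (SE 0.33, p = 0.0128 in edgeR) and Meg3 -0.79 (SE 0.07, p = 7.6e-05 in edgeR), each with an adjusted p of 1. Meg3 had 9496 and 12780 CPM in 1 h mouse 2, 13230 and 16090 in 1 h mouse 10, and 11960 and 8856 in HC mouse 3. Atp2b1 had 5107 and 3810, 5718 and 4095, and 5247 and 6954, the reverse pattern to Meg3.

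The CA1 markers followed the same split by exposure. In HC 10 of 12 were negative (median -0.84), at 1 h 10 of 12 were positive (median 0.69), and 11 of 12 had a positive interaction (median 1.51), against 43.3% of all genes (median -0.40), with Wfs1, Camk2a and Dkk3 at an unadjusted p under 0.05. Wfs1, an endoplasmic reticulum protein typical of CA1, had 605.8 and 167.1 CPM in the Arc-high and Arc-low sum of 1 h mouse 2, 141.6 and 5.63 in 1 h mouse 10, and 182.1 and 801.6 in HC mouse 3. Its interaction was 5.34 (SE 1.67, edgeR unadjusted p = 0.0238, adjusted p = 1). Camk2a had 1.02 (SE 0.37, edgeR unadjusted p = 0.0385) and Dkk3 2.09 (SE 0.73, edgeR unadjusted p = 0.0347). Per nucleus Wfs1 was above 1 in 7 of 8 Arc-high and 5 of 13 Arc-low nuclei of 1 h mouse 2, in 1 of 3 and 1 of 3 of 1 h mouse 10, and in 13 of 15 and 12 of 12 of HC mouse 3. The 1 h Arc-low class therefore held more nuclei without Wfs1 than the others. The CA1 marker fold changes moved with the class in opposite directions in the 1 h mice and in HC mouse 3. That was the only HC mouse in the fit, so mouse and exposure cannot be told apart. Subiculum markers moved with the class in the other direction: 6 of 6 were positive in HC, 0 of 6 at 1 h, and 0 of 6 had a positive interaction, with Slc17a6 and Teddm3 at an edgeR unadjusted p under 0.05. Slc17a6, another vesicular glutamate transporter, had 0 and 0.18 CPM in 1 h mouse 2, 7.49 and 25.1 in 1 h mouse 10, and 37.0 and 0.07 in HC mouse 3. Few nuclei held these transcripts. In HC mouse 3 Slc17a6 and Teddm3 were each above 1 in 2 of 15 Arc-high and 0 of 12 Arc-low nuclei. In 1 h mouse 2 Teddm3 was above 1 in 0 of 8 Arc-high and 1 of 13 Arc-low nuclei. Of the CA3 and CA2 markers 3 of 6 were positive in HC and 2 of 6 at 1 h. The part of these markers in the other differences between exposures was not tested.

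**Figure D4:**
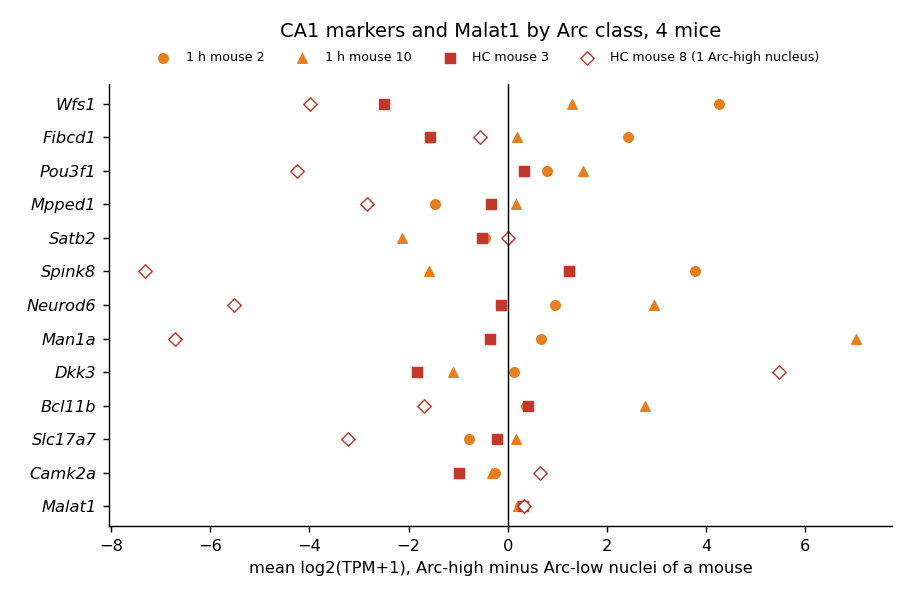
Mean log2(TPM+1) of Arc-high minus Arc-low nuclei of a mouse (horizontal axis) for the 12 CA1 markers and Malat1, 1 marker shape per mouse. Wfs1 lies right of 0 in both 1 h mice and left of 0 in both HC mice, and Malat1 is right of 0 in all 4 mice; HC mouse 8 has a single Arc-high nucleus.

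FOS+ nuclei of the same mice were set against the Arc-high FOS- nuclei to ask how far the latter resemble nuclei that made FOS protein. The 33 CA1 FOS+ nuclei came from 1 h mice 2, 4 and 10 (24, 4 and 5). Only mice 2 and 10 had both classes, and mouse 4 entered the same fit through its FOS+ and Arc-low sums. A fold change can therefore lie outside the range of mice 2 and 10. EdgeR called 0 of 15914 genes, with 656 at an unadjusted p under 0.05 (497 higher in FOS+ nuclei, 3.12%, and 159 lower, 0.999%), and DESeq2 called 926 (5.82%). IEG transcription factors were mostly higher in FOS+ nuclei, with 18 of 22 positive and 2 at an unadjusted p under 0.05. The median was 3.71, or 3.21 with the 5 genes at 0 in the Arc-high sums set at the bound of 3 counts over the class. Among effectors 33 of 39 were positive, 9 at an unadjusted p under 0.05, with a median of 3.36. Over all genes 58.1% were positive with a median of 0.32.

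Nr4a1 had no common direction in the 2 mice. It had 347.0 and 66.5 CPM in the FOS+ sums of mice 2 and 10 and 212.2 and 333.8 in the Arc-high FOS- sums (log2 fold change -0.76, SE 2.00, edgeR unadjusted p = 0.719). The error spans both directions. Per nucleus, Nr4a1 was above 1 in 28 of 33 FOS+ nuclei, mouse 4 included (median 6.94 log2(TPM+1)). In Arc-high nuclei at 1 h it was above 1 in 7 of 11 (median 5.58). Egr1 had 570.9 and 152.8 in FOS+ sums against 363.6 and 11.4 (3.78, SE 1.97, p = 0.108 in edgeR), and Fos 132.7 and 49.9 against 0.1 and 16.8 (4.45, SE 3.17, p = 0.214 in edgeR). Homer1 had 692.4 and 293.6 against 282.3 and 153.2 (1.04, SE 1.09, p = 0.381 in edgeR).

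Bdnf and several effectors stood lower in the Arc-high FOS- sums. Bdnf had 595.6 and 556.5 CPM in FOS+ sums of mice 2 and 10 against 27.1 and 0.0 (log2 fold change 6.33, SE 1.79, edgeR unadjusted p = 0.0138), and Dusp1 242.2 and 96.8 against 1.1 and 4.6 (6.04, SE 1.43, p = 0.0065 in edgeR). Scg2, the dense-core vesicle protein secretogranin, had 1799 and 543.0 against 306.2 and 352.1 (1.85, SE 0.64, p = 0.0297 in edgeR), and Sgk1 132.1 and 193.4 against 14.3 and 12.9 (3.67, SE 0.66, p = 0.0018 in edgeR). Rheb was also at an unadjusted p under 0.05 (3.46, SE 1.36, p = 0.0466 in edgeR). Each of these had an adjusted p of 0.963. The 8 genes of lowest p that were higher in FOS+ nuclei were Ppm1l, Sgk1, Myadm, Slit2, Kif1b, Chp1, Osbpl6 and Ctsl, with 1.69 (SE 0.33) for Kif1b, a kinesin, and the 8 lower were Slc24a2, Mc4r, Gm2065, Sphkap, Ido2, Dmd, Ppp2r3c and 2010103J01Rik, with -1.40 (SE 0.29) for Slc24a2 and -3.76 (SE 0.87) for Sphkap. The CA1 markers were lower in FOS+ sums for 11 of 12 (median -1.09), while 7 of 8 CA3 and CA2 markers and 4 of 5 subiculum markers were higher, none of them at an unadjusted p under 0.05. The part of these markers in the differences was not tested.

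Against Arc-low FOS- nuclei, which share the FOS+ sums, the FOS+ sums stood further above for Nr4a1, Egr1 and Homer1 and less far above for Bdnf and Sgk1. Nr4a1 had a log2 fold change of 6.43 (edgeR unadjusted p = 0.0134), Egr1 6.83 (p = 0.0145 in edgeR), Homer1 3.50 (p = 0.0169 in edgeR), Bdnf 3.46 (p = 0.0325 in edgeR) and Sgk1 1.96 (p = 0.0095 in edgeR). Of the IEG transcription factors 21 of 22 were positive and 10 were higher at an unadjusted p under 0.05 (background 2.68%), with edgeR calling 0 genes at an adjusted p under 0.05.

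Arc-high nuclei at 1 h were last compared with Arc-high nuclei in HC. The test had 2 mice against 1 and no block, so mouse and exposure cannot be told apart. EdgeR called 0 of 18878 genes, with 533 at an unadjusted p under 0.05 (29 higher at 1 h, 0.154%, and 504 lower, 2.67%), and DESeq2 called 165 (0.874%). Of the IEG transcription factors 7 were positive and 12 negative, against 44.0% positive over all genes. Nr4a1 had a log2 fold change of 1.09 (SE 1.87), Egr1 -0.96 (SE 2.38), Homer1 0.75 (SE 1.98) and Bdnf -2.57 (SE 2.57). No increase of these genes at 1 h over HC within the Arc-high class was detectable at this number of mice. The genes of lowest p were Malat1 (0.23, SE 0.04, edgeR unadjusted p = 0.0012), Hax1, Pex5, Dcp1a, Tspan2, 9530059O14Rik, Rasgef1b and Allc on the higher side and Lrrn3, Myadm, Tm9sf4, Zfp445, Ptdss1, Camk2g, Maneal and Zfp239 on the lower side.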

How the data were processed

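Single hippocampal nuclei were profiled by SmartSeq2. Per the paper's methods and the labels, the authors trimmed reads with Solexa-QA++ and quantified them with RSEM and Bowtie on mm10 with an Ensembl annotation whose release is not given in the sources used here. The authors deposited expected counts per gene (all whole numbers as deposited, 42802 genes, of which 30 had missing values) and log2 values of TPM + 1 (40221 genes). Neither table lists mitochondrial genes. The later dentate gyrus tables were not used.

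Predicted type, gate, exposure and mouse came from the labels. Expected counts were summed per mouse and Arc class over mice with at least 2 nuclei in each class. Sums were tested with edgeR 4.0.16 (TMM, filterByExpr, quasi-likelihood, mouse as a block) in R 4.3.3, with Benjamini-Hochberg adjustment over all genes tested and a threshold of 0.05. Nuclei of a mouse are not replicates, so the authors' test on single nuclei was not run. FOS+ sums were fitted with both FOS- classes at 1 h. Depth was compared by exact paired permutation over mice. Sums of 3 mice and 1289939 to 18561886 counts limit precision more than counting does, and intervals cover counting error only. The scripts were tested on simulated data.

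The pairing comes from the labels, since both sums of a pair are nuclei of one mouse. Deviations from the class means correlated by -0.00, 0.07 and 0.07 within mice and by -0.10 to 0.05 between mice, across 10215 genes. Alternatives were DESeq2 1.42.0, its size factors in edgeR, limma 3.58.1 on mean log2(TPM + 1), no filter, no block, 1 nucleus per class, Arc above 1 or 5, thinning to 300000 counts (no nucleus was shallower), and each mouse left out. Leaving out nuclei with Fos counts or with other cell types' markers was chosen after seeing the data.

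Named were members of the 2 activity lists with the lowest p or largest change, the 8 higher and 8 lower genes of lowest p with the same direction in every mouse of each comparison (none passed the threshold), Fos, Homer1, Nr4a1 and Bdnf, and up to 4 members of each other list by level. Other named members, among them Wfs1, Ptprn's ranges and Elk1, were chosen after their values were seen. The members and lists were chosen with earlier results of these data known. Gene positions are from the GENCODE annotation of mm10, and promoters from RefSeq, where Arc and Egr1 have no entry. The values of 1 listed marker gene are not reported here.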

Additional observations from a re-analysis of the deposited data

Results flagged for a closer look

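Of the 33 named genes checked, 6 had an Arc class difference in mean log2(TPM+1) that pointed one way in both HC mice and the other way in both 1 h mice with both classes. Taken as 1 h minus HC, the differences were 2.05 for Jun, -4.79 for Junb, 6.02 for Wfs1, 2.36 for Fibcd1, 4.78 for Neurod6 and 7.38 for Man1a. HC mouse 8 enters these values with 1 Arc-high nucleus, which had 3 of 12 CA1 markers. In the interaction test over sums, which leaves that mouse out, edgeR gave unadjusted p-values of 0.237 for Jun, 0.314 for Junb, 0.0238 for Wfs1, 0.168 for Fibcd1, 0.251 for Neurod6 and 0.202 for Man1a, and each adjusted p was 1. Among the 6, 4 are CA1 markers, and all 12 CA1 markers were among the 33 genes checked. The share of all genes with such a pattern was not computed, so the 6 have no background beside them. In HC mouse 3 alone the Arc class differences of Jun, Neurod6 and Man1a were -0.03, -0.13 and -0.36.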

How the results depend on the processing

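The Arc class comparison called 0 genes under each alternative except DESeq2, which called 404. DESeq2 also called 46 in HC, 476 at 1 h, 185 for the interaction, 926 for FOS+ against Arc-high nuclei and 165 for Arc-high nuclei between exposures. The limma fit called 1 gene in HC and 1 at 1 h, and thinning 1 at 1 h, which was Malat1 each time. The fit with no replicate block, which drops the pairing by mouse, called 0 genes (394 at an unadjusted p under 0.05) and gave 4.59 for Nr4a1 and 1.46 for Egr1. Blocking changed no other call. Of 223 values for 17 genes under the alternatives, 0 changed sign and 3 newly passed the threshold, all with DESeq2 (Nr4a1 4.96, Mpi 4.67 and Gpr180 -7.01). Leaving out each mouse called 0 genes and gave 3.65 to 6.14 for Nr4a1 and 1.54 to 2.61 for Egr1. The effector median changed sign with at least 1 nucleus per class (-0.046) and with Arc above 5 (-0.43), and the CA1 marker median did so under the same settings (-0.25 and -0.28) and without 1 h mouse 10 (-0.13), within -0.13 to 0.69 over the mice left out. The cause was not tested. The IEG median was 1.46 without the block, 2.20 with at least 1 nucleus per class, 2.31 after thinning, 0.62 with limma, 2.42 without Fos-count nuclei and 1.11 to 1.88 over the mice left out. The effector median was 0.53 without the block and 0.09 without Fos-count nuclei, and the CA1 median 0.62 with limma. The Arc-high share was 44.8% with Arc above 1 (30 of 67) and 32.2% with Arc above 5 (19 of 59, without the 8 nuclei between). The fits by exposure and between exposures could not be made without any 1 mouse.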

Other observations

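Spry2, which encodes an inhibitor of receptor tyrosine kinase signalling, was above 1 in 13 of 16 HC Arc-high, 10 of 19 HC Arc-low, 7 of 11 1 h Arc-high and 7 of 21 1 h Arc-low nuclei, and in 31 of 33 FOS+ nuclei. Kdm6b, a histone demethylase, was above 1 in 14 of 16, 11 of 19, 9 of 11, 14 of 21 and 32 of 33 nuclei of the same groups. Nptx2, a secreted pentraxin that clusters AMPA receptors, was above 1 in 2 of 16, 4 of 19, 4 of 11 and 2 of 21 nuclei, against 17 of 33 FOS+ nuclei.

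Myadm, a membrane protein, was above 1 in 13 of 16 HC Arc-high and 14 of 19 HC Arc-low nuclei, in 2 of 11 Arc-high and 14 of 21 Arc-low nuclei at 1 h, and in 21 of 33 FOS+ nuclei. It was chosen after its values were seen, as a gene whose Arc-high nuclei at 1 h stood below every other group.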
